A study of Mus musculus with 10 samples.

Results

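The genes described are 10 that encode parts of excitatory synapses, namely the neuronal pentraxins Nptx1, Nptx2 and Nptxr, the AMPA receptor subunits Gria1, Gria2, Gria3 and Gria4, and the NMDA receptor subunits Grin1, Grin2a and Grin2b. They were taken by symbol from a table of 45906 gene rows, and all 10 were among the 17409 genes that passed the filter on low counts. The genes were chosen by the measured difference of Nptx2, which stood 10th of those genes when they were ordered by the p-value of the A53T against EV comparison. Its difference between the groups is therefore a description, and so are the differences of the other 9 genes in the same comparison.

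The libraries came from male C57BL/6 mice that received an adeno-associated virus of serotype AAV1/2 at 10 to 12 weeks of age. In 5 mice, the EV group, the vector was empty, and in the other 5 it carried A53T haSyn, the human α-synuclein with a mutation found in inherited Parkinson disease. After another 16 weeks, at 26 to 28 weeks of age, substantia nigra and striatum were digested with collagenase and their cells collected from a Percoll gradient. No sort or gate is named, and no promoter for the transgene.

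Neuronal pentraxins are proteins of the synaptic cleft that gather AMPA receptors on the receiving side of excitatory synapses. Nptx1 and Nptx2 are secreted, Nptxr is anchored in the membrane, and Nptx2, also known as Narp, is induced by neuronal activity and is best known at excitatory synapses onto parvalbumin interneurons. AMPA receptors are tetramers of the Gria subunits and carry fast excitatory current, while NMDA receptors need the subunit Grin1 together with subunits such as Grin2a or Grin2b and admit calcium. In the striatum both receptor types sit on projection neurons that receive cortical and thalamic input.

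Totals lay between 12386305 and 21780086 counts per library. Mitochondrial ribosomal RNA made up 10.9% of the total in A53T replicate 4 and 15.1% in the library labelled A53T replicate 3. In the other libraries it made up 31.8% (A53T replicate 1) to 50.9% (EV replicate 1). Transgene reads numbered 1217 to 2223 in 4 of the A53T libraries and 10 in the library labelled A53T replicate 3, against 1 read in EV replicate 2 and 0 in the other EV libraries. All 11 microglia markers and all 12 pan-neuronal markers looked up were read and passed the filter. The summed level of the microglia markers, in counts per 1000000 after scaling (CPM), ranged from 409 to 2821 in EV and from 352 to 6918 in A53T. That of the pan-neuronal markers ranged from 1807 to 3509 in EV and from 388 to 3476 in A53T. The library labelled A53T replicate 3 and A53T replicate 4 were the highest in microglia markers and the lowest in neuronal ones. The gradient fraction thus held RNA of neurons as well as glia, and in such bulk libraries fewer cells of a type and less RNA per cell cannot be told apart.

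Nptx2 (gene ID 53324, plus strand of chr5:144545887-144557478, build GRCm38.p6) had the fewest reads of the 10 genes, 1390 in all and 62 to 297 per library. Its level was 8.49, 18.2, 12.2, 7.87 and 7.58 CPM in EV replicates 1 to 5. It was 6.06, 4.64, 6.46, 5.31 and 3.85 CPM in A53T replicates 1 to 5, the 6.46 being that of the library labelled A53T replicate 3. All 5 A53T libraries lay below the lowest EV library, so the groups did not overlap, and EV replicate 2 stood highest. Groups did not overlap in this direction for 0.144% of all genes tested, and in either direction for 0.431%, and Nptx2 was the only one of the 10 to which this applied. The gap was narrow at its edge, since the 95% Poisson counting interval of the nearest A53T library (5.44 to 7.61 CPM) overlapped that of EV replicate 5 (6.45 to 8.85 CPM). It averaged 10.9 ± 4.49 (EV) and 5.26 ± 1.06 CPM (A53T), with the SD over 5 libraries each. The fitted log2 fold change was -1.04 ± 0.31 (SE). It lay between -1.17 and -0.81 when each library was left out in turn, and the value of -0.81 was the one without EV replicate 2. Without the library labelled A53T replicate 3 and A53T replicate 4 it was -1.16.

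Nptx1 (gene ID 18164, minus strand of chr11:119538719-119547820) was at 7.80, 43.3, 14.9, 11.4 and 5.39 CPM in EV replicates 1 to 5 and at 8.86, 11.7, 6.59, 2.35 and 10.2 CPM in A53T replicates 1 to 5. EV replicate 2 stood far above the rest and EV replicate 3 just above the A53T range, while the other 3 EV libraries lay within it. For Nptx1 the log2 fold change was -1.06 ± 0.57 (SE), and -0.35 without EV replicate 2, the ends of the range without 1 library being -1.29 and -0.35. It was 0.056 without EV replicate 2, the library labelled A53T replicate 3 and A53T replicate 4 together.

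Nptxr (gene ID 73340, minus strand of chr15:79786351-79804709), the membrane-bound member, was at 35.8, 59.5, 34.9, 12.6 and 14.9 CPM in EV replicates 1 to 5. In A53T replicates 1 to 5 it was at 11.2, 23.7, 13.7, 6.64 and 26.3 CPM. EV replicates 1, 2 and 3 were higher than every A53T library, while EV replicates 4 and 5 fell within the A53T range. The log2 fold change was -0.95 ± 0.47 (SE), and without 1 library it ranged from -1.24 to -0.61, the latter without EV replicate 2. The Nptxr row overlaps on the same strand with Npcd, a row of 6148 reads in all against 3924 for Nptxr, so how reads were split between these rows is uncertain.

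**Figure D1:**
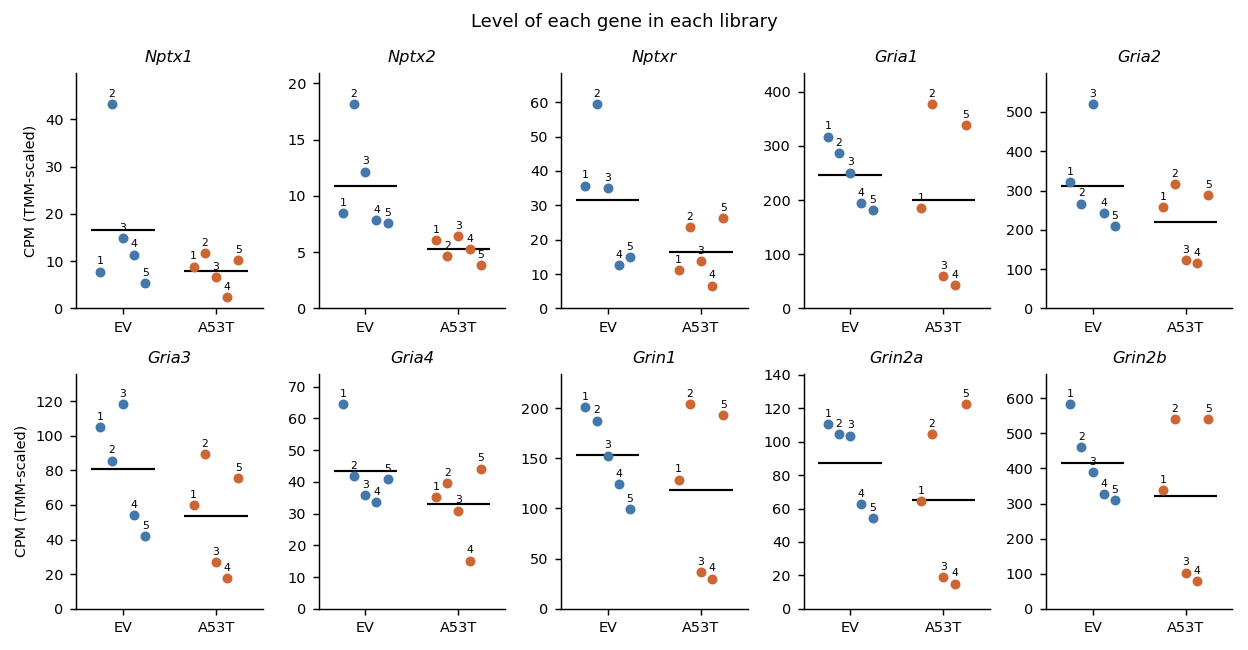
Level of the 10 genes in CPM (y axis, linear from 0, TMM-scaled) in EV (blue) and A53T (orange), 1 point per library with its replicate number and a bar at the group mean. Nptx2 is the only panel in which the groups do not overlap, and in the AMPA and NMDA receptor panels A53T 3 and A53T 4 lie lowest.

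Slc17a7, the vesicular glutamate transporter of cortical and hippocampal excitatory neurons, was also highest in EV replicate 2. Its levels were 12.8, 71.1, 39.6, 7.87 and 0.81 CPM in EV replicates 1 to 5 and 1.61, 5.25, 14.0, 0.28 and 7.45 CPM in A53T replicates 1 to 5. The 6 markers of these neurons summed to 32.4 to 146 CPM in EV and 14.7 to 51.3 CPM in A53T. Much of this was Cux2, at 29.6 ± 12.7 (EV) and 21.3 ± 7.72 CPM (A53T, SD over 5 libraries each). The sum was thus 35.9 CPM in EV replicate 5, where Slc17a7 was at 0.81 CPM. None of the 6 was at 0 in all libraries, but Neurod2 was at 0 in 4 and Neurod6 in 3. Their part in the differences of the pentraxins was not tested. Nptx2 kept no fixed proportion to Slc17a7, with 297 reads against 1161 for Slc17a7 in EV replicate 2 and 159 against 17 in EV replicate 5.

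Gria1 (chr11:57011571-57330244, plus strand), which encodes the GluA1 subunit, was at 317, 287, 251, 195 and 181 CPM in EV replicates 1 to 5. In A53T replicates 1 to 5 it was at 185, 377, 60.3, 43.2 and 338 CPM. A53T replicates 2 and 5 were higher than every EV library, and the library labelled A53T replicate 3 and A53T replicate 4 were lower than every one. Its fitted log2 fold change was -0.29 ± 0.53 (SE), and it turned to 0.29 without that pair. It was -0.66 without A53T replicate 2 and -0.61 without A53T replicate 5.

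Gria2 (chr3:80681450-80804227, minus strand) encodes GluA2, the subunit that makes AMPA receptors nearly impermeable to calcium once its transcript has been edited. The stretch upstream of a Gria2 start site is shown because it holds a match to the core of RE1, the DNA element bound by the neuronal gene repressor REST. It covers chr3:80802836-80803085 on the minus strand (RefSeq, GRCm38.p6), the 250 bases before that start site, which lies inside the span of the deposited Gria2 row, with the match in capitals.

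Gria2 upstream: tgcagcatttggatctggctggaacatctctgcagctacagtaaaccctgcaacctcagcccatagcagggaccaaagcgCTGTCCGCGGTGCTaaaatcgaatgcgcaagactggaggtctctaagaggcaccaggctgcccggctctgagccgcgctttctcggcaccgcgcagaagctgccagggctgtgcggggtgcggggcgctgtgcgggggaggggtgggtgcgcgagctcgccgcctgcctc

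The pattern searched on both strands was AGCACC, then 2 bases of any kind, then GGACAG. It was chosen with the window in view, and 0.0457% of 32851 promoter windows of this length held it. Of the 10 genes, 3 had such a window, and those of Grin1 and Gria4 held no match. With a C required in front, the pattern was in 0.0335% of windows and in none of the 3. The cyclic AMP response element TGACGTCA (1.55% of windows) and the GC box GGGCGG (32.7%) were not found in these 3 windows either. A match is a description of letters only.

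Gria2 levels were 321, 266, 520.2, 243 and 209 CPM in EV replicates 1 to 5 and 258, 316, 123, 115 and 289 CPM in A53T replicates 1 to 5. EV replicate 3 stood highest, and the same pair of A53T libraries lowest. Gria2 had a log2 fold change of -0.50 ± 0.37 (SE), of -0.69 to -0.27 without 1 library and of -0.12 without the pair. Gria3 (chrX:41400854-41678601, plus strand), which encodes GluA3, ranged from 41.8 to 118 CPM in EV (median 85.7) and from 17.5 to 89.5 CPM in A53T (median 59.8). Its log2 fold change was -0.59 ± 0.44 (SE), from -0.86 to -0.36 without 1 library and -0.11 without the pair.

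Gria4 (chr9:4417893-4796234, minus strand) encodes GluA4, the subunit typical of parvalbumin interneurons and also found in oligodendrocyte precursors. It was at 64.5, 41.7, 35.8, 33.5 and 40.8 CPM in EV replicates 1 to 5 and at 35.1, 39.7, 30.9, 15.2 and 44.2 CPM in A53T replicates 1 to 5. Only EV replicate 1 was above the A53T range, and A53T replicate 4 and the library labelled A53T replicate 3 were below the EV range. Gria4 differed by a log2 fold change of -0.39 ± 0.29 (SE), from -0.56 to -0.21 without 1 library and -0.13 without that pair. Pvalb itself, the calcium-binding protein that names those interneurons, had 2 to 49 reads per library, which is 0.16 to 3.38 CPM for EV libraries and 0.27 to 1.55 CPM for A53T libraries.

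Grin1 (chr2:25291177-25319253, minus strand), the obligatory NMDA receptor subunit, was at 201, 187, 153, 124 and 99.2 CPM in EV replicates 1 to 5. In A53T replicates 1 to 5 it was at 129, 204, 36.2, 30.1 and 193 CPM. The A53T libraries thus spread from far below to just above the EV range. The fold change on the log2 scale was -0.37 ± 0.50 (SE), and 0.19 without the library labelled A53T replicate 3 and A53T replicate 4. It was -0.67 without A53T replicate 2 and -0.66 without A53T replicate 5, so it moved in both directions.

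Grin2b (chr6:135713221-136173615, minus strand), the subunit that prevails early in development and persists in the adult forebrain, also had its lowest levels in that pair and no A53T library above the EV range. Its levels ran from 310.3 to 583 CPM in EV (median 390.4) and from 78.0 to 541 CPM in A53T (median 338). Grin2a (chr16:9567901-9996083, minus strand), which joins synapses later, ran from 54.4 to 111 CPM in EV (median 104) and from 15.0 to 122 CPM in A53T (median 64.5). Their log2 fold changes were -0.37 ± 0.51 and -0.42 ± 0.53 (SE), and 0.19 and 0.16 without the pair. Without A53T replicate 2 they were -0.65 and -0.67, and without A53T replicate 5 they were -0.68 and -0.82.

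Across the whole table, 0 of 17409 genes (0%) passed edgeR's quasi-likelihood test after Benjamini-Hochberg adjustment, and so none of the 10 did. An unadjusted p under 0.05 was reached by 378 genes (2.17%), 122 of them lower in A53T (0.701%), and of the 10 by Nptx2 alone. That comparison chose the genes, and nothing is read from these counts. DESeq2 called 1 gene over the whole table, the transgene, and limma-voom and limma on the rlog values called 0. All 10 genes had a fitted fold change below 0, as did 47.2% of all genes tested. Their median log2 fold change was -0.46, against 0.027 over all genes, and -0.11 without the library labelled A53T replicate 3 and A53T replicate 4. All 12 pan-neuronal markers also had a fitted fold change below 0, with a median of -0.44, and for Snap25 itself it was -0.46 ± 0.50 (SE).

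**Figure D2:**
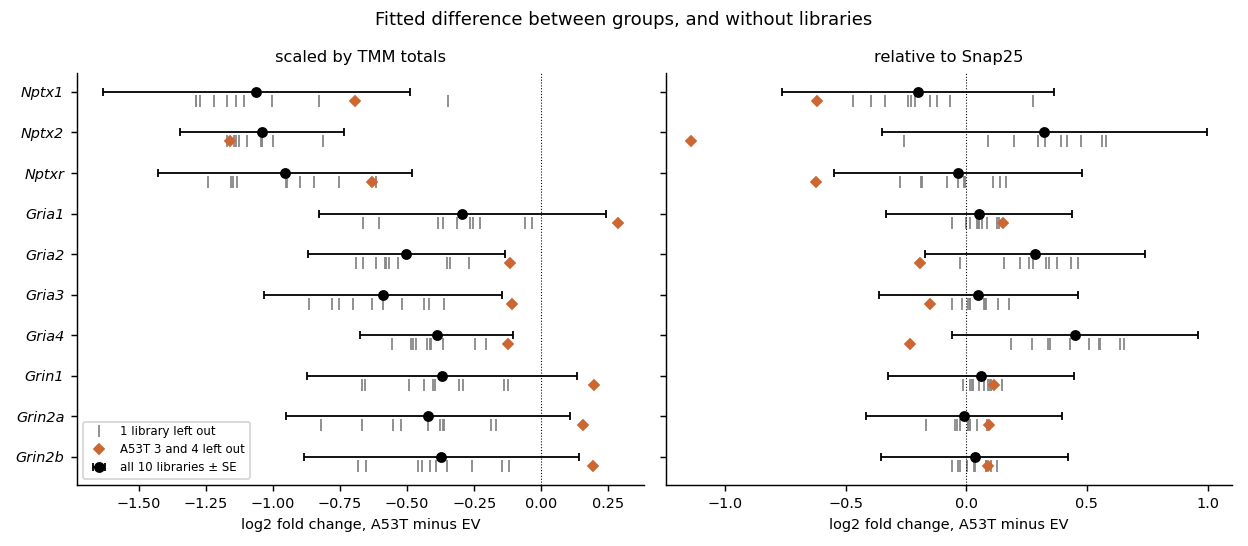
Fitted log2 fold change of A53T minus EV (x axis) for each gene (y axis), scaled by TMM totals (left) and relative to Snap25 (right). Black points are fits of all 10 libraries with SE, grey ticks leave out 1 library each, and orange diamonds leave out A53T 3 and A53T 4. On the left all Nptx2 fits without 1 library lie between -1.17 and -0.81, and on the right its diamond, at -1.14, lies farthest from its point.

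Reads were next taken relative to Snap25, a vesicle fusion protein of all neurons, which had 764 to 4665 reads per library. Snap25 was at 259, 286, 237, 166 and 125 CPM in EV replicates 1 to 5 and at 167, 304, 63.1, 35.3 and 212 CPM in A53T replicates 1 to 5. On this scale the median log2 fold change of all genes was 1.23. Snap25 was lowest in the pair of A53T libraries that were highest in microglia markers. Without that pair the median of all genes was -0.14. Groups overlapped for all 10 genes, as they did for all but 0.19% of genes tested, 0.0115% being lower in A53T without overlap. None of the 10 was called by edgeR or reached an unadjusted p under 0.05, which 18.4% of all genes did, with 0.0115% of all genes doing so as lower in A53T, while the transgene was the 1 gene called (0.00574%, adjusted p = 0.0272). 3 of the 10 had a fitted fold change below 0, against 5.87% of all genes. The median of the 10 was 0.051.

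The NMDA receptor genes varied less between libraries relative to Snap25 than in CPM. Grin1 had 77.6, 65.6, 64.4, 74.8 and 79.6 reads per 100 Snap25 reads in EV replicates 1 to 5 and 77.2, 67.1, 57.4, 85.5 and 90.8 in A53T replicates 1 to 5. The highest library was 1.58 times the lowest, although the Grin1 level in CPM differed 6.76 times between libraries. The log2 fold change of Grin1 relative to Snap25 was 0.062 ± 0.39 (SE), that of Grin2a -0.0084 ± 0.41 and that of Grin2b 0.034 ± 0.39. The highest library was 1.93 times the lowest for Grin2a and 1.58 times for Grin2b. Gria1 and Gria3 were similar, with a highest library 1.66 and 1.69 times the lowest and log2 fold changes of 0.051 ± 0.39 and 0.050 ± 0.41.

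Nptx2 varied most of the 10 on this scale. There were 3.27, 6.37, 5.13, 4.74 and 6.08 Nptx2 reads per 100 Snap25 reads in EV replicates 1 to 5. In A53T replicates 1, 2 and 5 there were 3.64, 1.53 and 1.81, while the library labelled A53T replicate 3 had 10.2 and A53T replicate 4 had 15.1. The A53T libraries thus lay on both sides of the EV range, and the highest was 9.85 times the lowest. In CPM the highest Nptx2 library was 4.72 times the lowest, and of the 10 genes only Gria2 (4.53) and Gria4 (4.25) varied less. Snap25 itself varied 8.62 times in CPM and was lowest in the library labelled A53T replicate 3 and A53T replicate 4. The log2 fold change of Nptx2 relative to Snap25 was 0.32 ± 0.67 (SE), and -1.14 without these 2 libraries. It was -0.26 without A53T replicate 4 alone and 0.090 without the library labelled A53T replicate 3 alone.

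Nptxr had 7.61 to 20.8 reads per 100 Snap25 reads in EV and 6.71 to 21.7 in A53T, and Nptx1 3.01 to 15.2 and 3.85 to 10.5. Nptxr was highest in the library labelled A53T replicate 3 (21.7), EV replicate 2 (20.8) and A53T replicate 4 (18.8). The log2 fold changes of Nptxr and Nptx1 relative to Snap25 were -0.034 ± 0.51 and -0.20 ± 0.56 (SE). Both were -0.62 without the pair, and both turned positive without EV replicate 2, to 0.16 and 0.28. Without 1 library they ranged from -0.27 to 0.16 for Nptxr and from -0.47 to 0.28 for Nptx1.

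Gria4 also stood highest against Snap25 in that pair, and Gria2 in A53T replicate 4. Gria2 had 93.3 to 219 reads per 100 Snap25 reads in EV and 104 to 325 in A53T, with 325 in A53T replicate 4. Gria4 had 14.6 to 32.7 in EV, 13.1 to 21.0 in A53T replicates 1, 2 and 5, and 49.0 and 43.1 in the library labelled A53T replicate 3 and A53T replicate 4. Their log2 fold changes were 0.29 ± 0.46 and 0.45 ± 0.51 (SE), and -0.19 and -0.23 without the pair. Without 1 library they ranged from -0.025 to 0.46 and from 0.19 to 0.65. Markers of oligodendrocyte precursors, all 5 of which were read in the libraries, summed to 151 to 219 CPM in EV and 164 to 218 CPM in A53T. In the pair they summed to 215 and 188 CPM, while pan-neuronal markers there were at 736 and 388 CPM. Their part in the Gria2 and Gria4 reads was not tested.

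**Figure D3:**
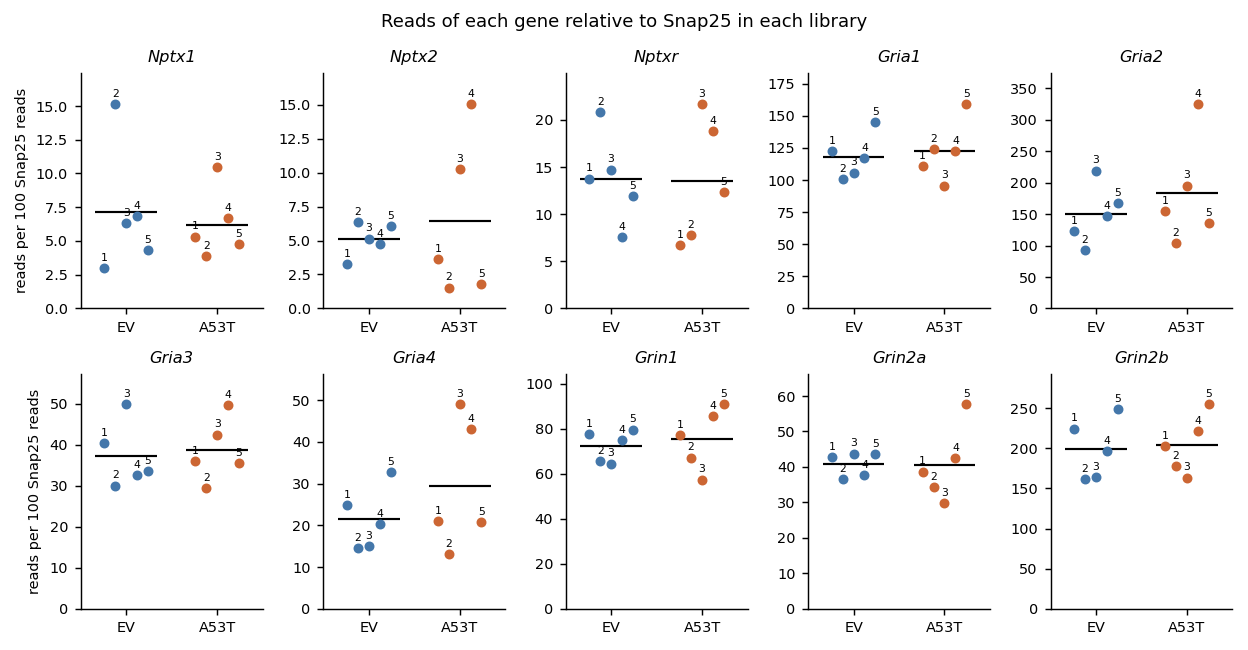
Reads of each gene per 100 Snap25 reads (y axis, linear from 0) in EV (blue) and A53T (orange), 1 point per library with its replicate number and a bar at the group mean. Grin1, Grin2b, Gria1 and Gria3 spread less than 1.70 times between libraries, while Nptx2, Gria2 and Gria4 are highest in A53T 3 or A53T 4.

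Across the 10 libraries the level of 9 of the 10 genes went with that of Snap25. Pearson's r of log2 CPM was 0.98 for Grin1 (permutation p = 4.00e-05, adjusted p = 2.00e-04 over the 10 genes), with a Spearman correlation of 0.94 (permutation p = 2.20e-04, adjusted p = 0.0022). It was 0.97 to 0.98 for Gria1, Gria3, Grin2a and Grin2b, 0.89 for Gria2 and 0.82 for Gria4. Nptxr and Nptx1 had an r of 0.81 and 0.78 (permutation p = 0.00268 and 0.00576, adjusted p = 0.00383 and 0.0064). All of these genes except Nptx2 had an adjusted permutation p of at most 0.0064 for Pearson's r and 0.0387 for the Spearman correlation. With group means removed, r was 0.74 to 0.98 for these 9 genes. All levels are shares of the same library totals, which links them apart from any cell content. Following Snap25 was not particular to neuronal genes. The mean log2 CPM of the 9 astrocyte markers had an r of 0.94 with it, and that of the 11 microglia markers -0.89.

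Nptx2 had an r of 0.32 with Snap25 (permutation p = 0.37, adjusted p = 0.37) and a Spearman correlation of 0.24 (permutation p = 0.511, adjusted p = 0.511). With group means removed, r was -0.0060. Without the library labelled A53T replicate 3 and A53T replicate 4, which lay farthest from the median Snap25 level, r was 0.19 for Nptx2, 0.36 for Gria4, 0.57 for Gria2 and 0.62 for Nptx1. It was 0.78 to 0.93 for the other 6 genes. Against Snap25 the relation of Gria4 thus rests on that pair. Which genes depended on the pair changed with the neuronal reference. With the mean log2 CPM of the pan-neuronal markers in place of Snap25, r without the pair was 0.65 for Gria4, 0.12 for Gria2, 0.36 for Nptx1, 0.55 for Gria3 and -0.065 for Nptx2. Whether r differed between Nptx2 and the other genes was not tested.

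**Figure D4:**
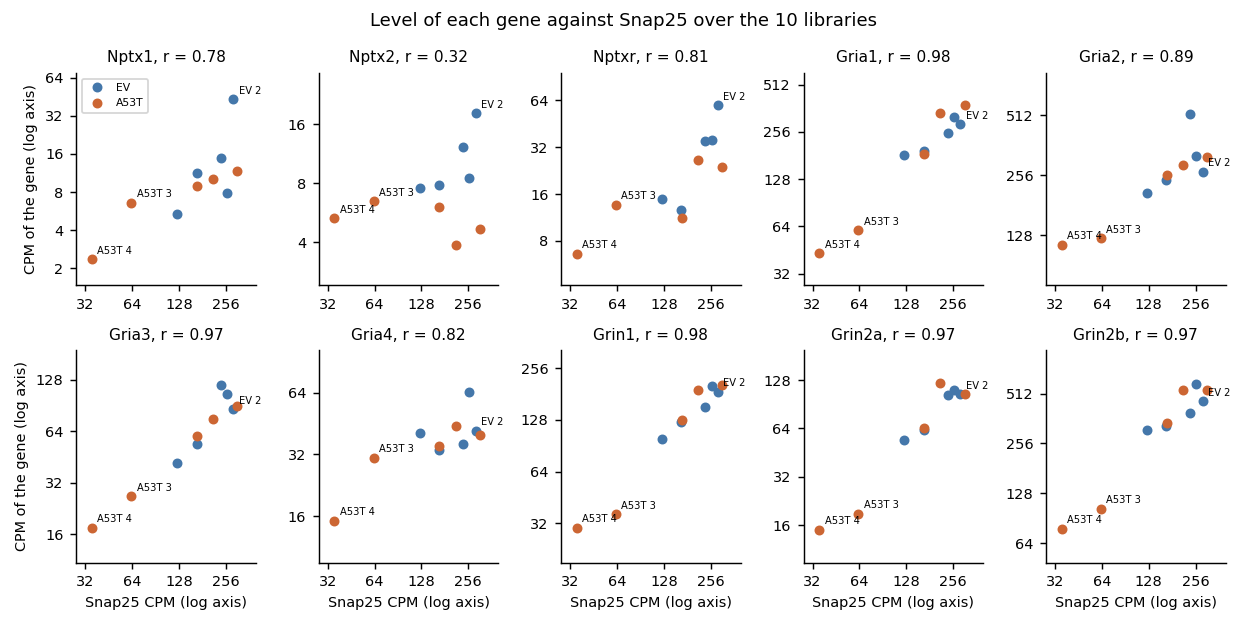
Level of each gene (y axis, CPM, log axis) against that of Snap25 (x axis, CPM, log axis) in the 5 EV (blue) and 5 A53T (orange) libraries, with Pearson's r of log2 CPM above each panel. Grin1 and Gria1 (r = 0.98) lie close to a line, while the Nptx2 points (r = 0.32) do not.

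Levels were next divided by the combined exon length given with the counts, which was 4438 bases for Grin1 and 24886 for Grin2b. The order depends on these lengths, and transcripts shorter than them or reads outside the annotated ends would change it. In reads alone Grin2b (60970) stood above Grin1 (22460), and Gria2 (44207) above Gria1 (36896). In CPM per kb of exon, Gria1 (median 34.8 over the 10 libraries) and Grin1 (31.7) were the highest. Gria2 (17.0), Grin2b (14.6) and Gria3 (11.0) came next, then Gria4 (5.91), Grin2a (4.12) and Nptxr (3.90), and last Nptx2 (2.75) and Nptx1 (1.80). The place of Nptxr also depends on how reads were split between its row and Npcd, which is uncertain. Some neighbours in this order kept it in nearly every library. Gria4 exceeded Grin2a in all 10 libraries, Grin1 exceeded Gria2 and Gria3 exceeded Gria4 in 9, and Gria1 exceeded Grin1 and Grin2b exceeded Gria3 in 8. Others were mixed, as Nptxr exceeded Nptx2 and Nptx2 exceeded Nptx1 in 7, Gria2 exceeded Grin2b in 6 and Grin2a exceeded Nptxr in 4.

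The make-up of the NMDA receptor genes hardly differed between libraries. Per kb of exon, Grin1 took 59.6 to 64.1% of the 3 genes in EV and 61.0 to 63.7% in A53T, and Grin2a 6.93 to 9.21% and 6.89 to 8.43%. The size of these shares rests on the same exon lengths. The AMPA receptor genes shifted more. Gria1 took 40.1 to 54.3% of the 4 genes in EV, 47.4 to 58.8% in A53T replicates 1, 2 and 5, and 35.4 and 34.8% in the library labelled A53T replicate 3 and A53T replicate 4. Gria4 took 5.73 to 11.6% in EV and 18.2% in the library labelled A53T replicate 3. Among the pentraxins Nptx2 took 26.1 to 42.5% in EV and 17.3 to 53.8% in A53T, with 53.8% in A53T replicate 4 and the lowest shares, 20.6 and 17.3%, in A53T replicates 2 and 5. The pentraxin shares also depend on the uncertain split of reads between Nptxr and Npcd.

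**Figure D5:**
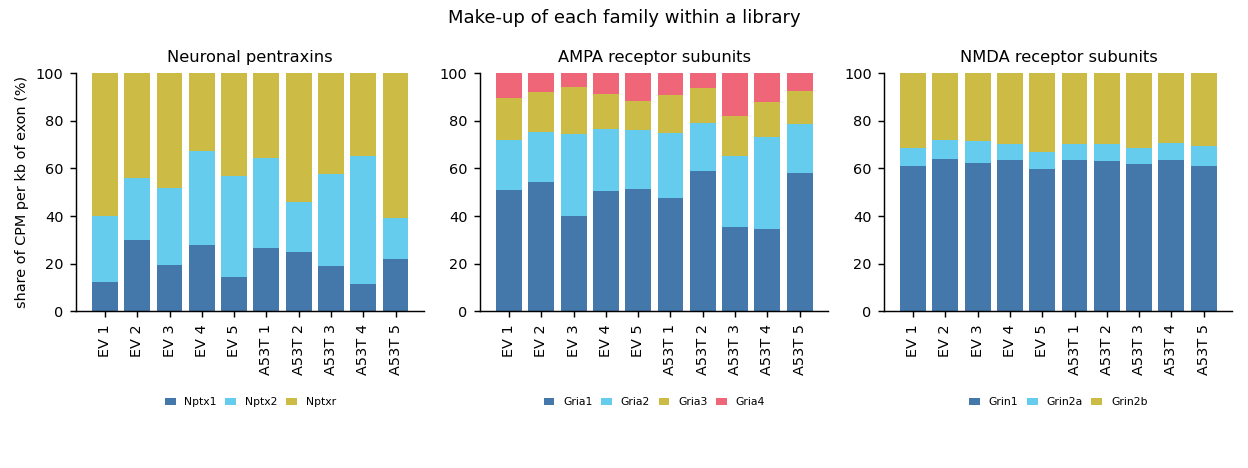
Share of each gene in the summed CPM per kb of exon of its family (y axis, percent) in each library (x axis), for the pentraxins, the AMPA receptor subunits and the NMDA receptor subunits. The NMDA panel is nearly level, with Grin1 between 59.6 and 64.1%, while Gria1 is lowest in A53T 3 and A53T 4 and Nptx2 ranges from 17.3 to 53.8%.

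Other genes of these pathways were read from lists by pathway, and edgeR called none of them in either direction on either scale. Of the 11 other ionotropic glutamate receptor genes 10 were tested, and 8 had a fitted fold change below 0 (median -0.39). Grin2c, an NMDA receptor subunit known from cerebellum and from glia, had means of 80.3 ± 30.0 (EV) and 81.5 ± 27.6 CPM (A53T), each with its SD over 5 libraries. The kainate receptor subunit gene Grik5 was at 141 ± 51.8 and 105 ± 72.7 CPM. Auxiliary proteins of AMPA and kainate receptors were below 0 for 16 of 18 genes (median -0.44). Of these Cacng4, a transmembrane AMPA receptor regulatory protein, was at 108 ± 45.7 and 78.7 ± 60.1 CPM, and Neto1 at 129 ± 29.3 and 87.7 ± 61.5 CPM.

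Scaffold and trafficking genes of the postsynaptic density were below 0 for 18 of 21 (median -0.43). Camk2a, the kinase abundant at excitatory synapses, averaged 1770.1 ± 838 (EV) and 1191 ± 1134 CPM (A53T), and Dlgap3, a striatal scaffold gene, 700.1 ± 448 and 509.7 ± 479.8 CPM (SD, n = 5). Of 17 synaptic organizer genes 13 were tested and 11 were below 0 (median -0.36), with Nrxn3, a presynaptic adhesion gene, at 515 ± 205 and 362 ± 103 CPM. Relative to Snap25 the medians of these 4 lists were 0.29, 0.052, -0.14 and 0.35, against 1.23 for all genes. The remaining pentraxin-domain genes could not be tested, since Ptx3 had 37 reads and Ptx4 10 over all libraries and Apcs and Crp had 0.

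Activity-regulated genes, among which Nptx2 is usually counted, mostly had the other sign. Of 11 such genes 8 had a fitted fold change above 0 (median 0.91), and none was called. The 3 below 0, the sign of Nptx2, were Npas4 (-0.77 ± 0.39), Arc (-0.54 ± 0.58) and Egr3 (-0.20 ± 0.20, log2 with SE). Fos averaged 170.2 ± 105 (EV) and 337 ± 273 CPM (A53T), and Egr1 311 ± 195 and 585 ± 440.3 CPM (SD, n = 5). The mean log2 CPM of this list had an r of -0.80 with Snap25 and of -0.15 with Nptx2 over the 10 libraries, as a description. Summed, these genes were highest in the library labelled A53T replicate 3 (2750.5 CPM) and A53T replicate 4 (3281 CPM), where microglia markers were highest as well (6051 and 6918 CPM). The part of microglial RNA in these values was not tested.

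Ordered by Pearson's r of log2 CPM with Nptx2 over the 10 libraries, among 14638 other genes whose log2 CPM averaged 1 or more, Nptx1 stood 118th (r = 0.63), Nptxr 222nd (r = 0.58) and Snap25 1771st. The AMPA and NMDA receptor genes had an r of 0.18 to 0.36. Slc17a7 stood 129th (r = 0.63). The most similar named genes were Ppm1e (r = 0.85), Zfp930 (0.85), Pcgf3 (0.83), Zfp788 (0.82), Katnbl1 (0.82) and Zfp329 (0.81). Since likeness to Nptx2 includes its difference between the groups, the choice of these 6 favours genes that are lower in A53T, and their means are given only as a description. They were 17.2 ± 4.55 (EV) and 12.1 ± 3.37 CPM (A53T) for Ppm1e, a protein phosphatase gene, and 7.62 ± 3.84 and 2.86 ± 1.02 CPM for Zfp930 (SD, n = 5).

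Libraries also differed in reads of the salivary gland gene Bpifa2, with at least 100 in 3 EV and 2 A53T libraries. Mean Nptx2 levels were 12.9 (EV) and 5.35 CPM (A53T) among those libraries and 7.72 and 5.2 CPM among the other 2 EV and 3 A53T libraries. The means of Nptxr were 43.4 and 17.4 CPM among those libraries and 13.8 and 15.5 CPM among the others. Its direction was thus not the same in both, but the 15.5 CPM includes 26.3 CPM in A53T replicate 5. The library labelled A53T replicate 3 and A53T replicate 4 were at 13.7 and 6.64 CPM, against 12.6 and 14.9 CPM in EV replicates 4 and 5. The means of Nptx1 were lower in A53T in both sets, as were those of all 7 receptor genes. Among the libraries with at least 100 Bpifa2 reads the Gria1 means were close, at 285 (EV) and 281 CPM (A53T). There A53T replicate 2 was at 377 CPM, above every EV library. The other A53T set, however, holds the library labelled A53T replicate 3 and A53T replicate 4, and its remaining library, A53T replicate 5, was above both EV libraries of that set for Grin1 (193 CPM against 124 and 99.2 CPM) and Gria1 (338 CPM against 195 and 181 CPM). With a term for such libraries the log2 fold change was -0.92 for Nptx2, -0.57 for Nptxr and -0.75 for Nptx1.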

How the data were processed

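RNA was sequenced from 10 libraries, 5 EV and 5 A53T, made from 0.5 ng of total RNA with 5 and then 15 cycles of PCR and read as single 75 nt reads, per the labels' protocols. The authors deposited raw read counts per gene, not normalized, and rlog values on a log2 scale made from them. Named without role or setting, per the submitters' processing notes, are the tools DESeq2 1.24.0, STAR 2.7.2b, cutadapt 2.5 and featureCounts 1.6.4 and the builds mm10 and GRCm38.p6. The strand setting of the counting was not given in the sources used, so overlapping genes may share reads. Chromosome names came from a RefSeq table of GRCm38.p6 by gene identifier, and positions are those of the deposited table, which differ from it at an end of Gria3 and Grin1.

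Counts were tested with edgeR 4.0.16 (R 4.3.3) by the quasi-likelihood F test with robust dispersions, TMM normalization, the default low-count filter and Benjamini-Hochberg adjustment at 0.05. For values relative to Snap25, its count replaced the scaled total of each library and the same genes were fitted. CPM is counts per 1000000 of the TMM-scaled total, each standard error is the fold change over the root of F, and log2 CPM used a prior count of 2. A count of 0 allows up to 3 reads, or 0.136 to 0.237 CPM. Intervals and floors cover counting error only, since reads carry no molecular identifiers. Correlations with Snap25 used 100000 permutations, 2-sided. Alternatives were DESeq2 1.42.0, limma 3.58.1 (voom, and on rlog values), other size factors, filters, covariates and reference genes, the replicate block, and libraries left out.

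The genes and lists were chosen with earlier results of these data known. Named beyond the 10 genes are, per pathway list, the 2 tested members of highest average level, and the activity-regulated genes fitted below 0. Markers of the preparation and the 6 named genes most similar to Nptx2 are named as well. A gene that this rule names is not reported here.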

Additional observations from a re-analysis of the deposited data

Results flagged for a closer look

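Within a group of 5 libraries, 2 of 40 sets of values had a sample far from the others by Dixon's ratio, and chance flags about 1 in 20 groups. The Nptx1 level in EV replicate 2 was 43.3 CPM, against 14.9 CPM in the next library. The Gria4 level in EV replicate 1 was 64.5 CPM, against 41.7 CPM in the next.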

How the results depend on the processing

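The number of genes called was 0 in the comparison of A53T with EV. It was 1, the transgene, with DESeq2, without the library labelled A53T replicate 3 and A53T replicate 4, and without these and EV replicate 2 (an alternative added after the data were seen, as was the Bpifa2 term). Leaving out 1 library gave 0 to 1, with 1 without the library labelled A53T replicate 3. Relative to Snap25 it was 1, 0 with a filter of at least 1 CPM in 5 libraries, and 0 to 1 without 1 library, being 0 without A53T replicate 1 and without any of the 5 EV libraries. With the replicate number as a block it was 1 on both scales, but the numbers do not pair the samples: same-numbered libraries correlated at -0.37 to 0.31, 2 of 5 pairs above 0.1, and 1 of 5 EV libraries correlated best with its own number. The median log2 fold change of the 10 genes relative to Snap25 was 0.051. It was -0.17 without the pair of A53T libraries and -0.18 without these and EV replicate 2. It lay between -0.025 and 0.11 without 1 library. On TMM totals the median was negative under all 23 alternatives, from -0.75 (replicate block) to -0.016, and Nptx2 from -1.17 to -0.66. The signs of Nptx2, Nptxr, Gria2, Gria3 and Gria4 held in all 23, those of Gria1, Grin1, Grin2a, Grin2b and Nptx1 turned in 1 to 3. Nptx2 was chosen by this comparison and the alternatives refit the same libraries, so its steady sign is a description only. Relative to Snap25 all 10 genes turned sign in some of 17 alternatives, Grin2a in 9, Nptx2 and Gria3 in 4, Gria2, Grin2b and Nptxr in 3, Gria1 and Gria4 in 2, and Grin1 and Nptx1 in 1. Read depth limits Nptx1 and Nptx2 most, with 51 and 62 reads in their lowest libraries. The causes of these shifts were not tested.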
